A study of Rattus norvegicus with 3 samples.

Results

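The cation-chloride cotransporters Slc12a2 (NKCC1), Slc12a5 (KCC2), Slc12a4 (KCC1) and Slc12a7 (KCC4) were followed through the cell classes of the embryonic rat cortex. The 4 genes were chosen by symbol, each matched 1 of the 29772 genes in the deposited files, and no measured value entered the choice. NKCC1 brings sodium, potassium and chloride into the cell together, and the KCC carriers use the outward potassium gradient to move chloride out. Their balance sets the chloride level of a neuron, and with it whether GABA, which opens chloride channels, depolarises or hyperpolarises the membrane. In the cortex NKCC1 is known for its use by immature neurons, and KCC2 is the neuronal extruder known to come up as neurons mature, while KCC1 and KCC4 are widely used in cell volume control.

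The cells came from wild-type rat embryos, whose cerebral cortex was dissociated with papain, and each of 3 libraries was made by single-cell RNA sequencing in droplets. The libraries are labelled embryonic day 14, 16 and 18 (E14, E16 and E18 below), with 1 library per label, and neither strain, sex, treatment nor the number of embryos pooled is given in the sources used here. There is therefore no replicate, no p-value is given, and every interval is a 95% interval for counting error only. The labels' protocol text also describes a sort of live human cells, which does not match primary rat tissue, so the steps these cells went through are uncertain.

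Levels are given in CPM, the unique molecular identifiers (UMIs, each a count of 1 captured transcript) of a gene per 1000000 UMIs summed over the cells of a class. The kit counts transcript ends, so a level does not scale with gene length, but capture can differ between genes. The 3 libraries held 62740631, 80974234 and 73727823 UMIs in label order, and 4286, 4977 and 5431 cells were kept, with medians of 11199.5, 12264 and 10477 UMIs. Kept barcode sequences shared between libraries numbered 7 or 8 per pair. Cells were clustered without the genes described here, and 23 of 24 clusters were named from markers. Radial glia, the stem cells of the ventricular zone, numbered 431, 2995 and 1898 in label order, and intermediate progenitors, their Eomes-positive daughters, 430, 456 and 955. Newborn and maturing excitatory neurons together numbered 3326 in E14 and 2271 in E18 but 2 in E16. In that library 517 cells fell in a cluster that stayed unnamed, led by Calb1, Calb2, Ebf1 and Nxph4. It is shown apart, as the unnamed Calb1/Lhx9 cluster.

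The libraries did not run in the order of their labels. In radial glia Hmga2, a gene of early progenitors, stood at 11.7 CPM in E14, 224 in E16 and 20.9 in E18, and Aldoc, a gene of late glia-like progenitors, at 720, 16.9 and 240 CPM. Of 8 stage genes, the late genes Tnc, Hopx and Apoe were also highest in E14 and lowest in E16. The radial glia also fell into different clusters. Those of E16 lay mostly in 3 clusters with 1331, 1251 and 376 of its cells, which held 12, 1 and 0 cells of E14, and those of E14 mostly in 3 others with 222, 139 and 57 of its cells, which held 36, 1 and 0 of E16 and 739, 696 and 289 of E18. The first 2 of the E16 clusters also held 67 and 93 cells of E18. For most radial glia, kinds of cell and libraries therefore cannot be told apart between E16 and the other 2 libraries. Differences between libraries are given below as differences between labels, not between known ages. Radial glia of E14 also carried more neuronal transcripts, with 16 markers of maturing neurons at a summed 429 CPM against 203 in E16 and 204 in E18.

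The promoters of Slc12a5 and Slc12a4 are shown because they belong to the members with the fewest UMIs and differ in base composition. All 4 members matched the RefSeq promoter table of the assembly GRCr8. The windows are the 250 bases before the listed start, read 5′ to 3′ on the gene's own strand. Capitals mark GGGCGG, the GC box, on either strand, and CATATG, an E-box. CAGATG, another E-box, and TTCAGCACC, a piece of the element bound by the repressor REST, were searched in the same way and were not in these letters in any of the 4 windows.
Slc12a5, chr3:174115583-174115832, + strand: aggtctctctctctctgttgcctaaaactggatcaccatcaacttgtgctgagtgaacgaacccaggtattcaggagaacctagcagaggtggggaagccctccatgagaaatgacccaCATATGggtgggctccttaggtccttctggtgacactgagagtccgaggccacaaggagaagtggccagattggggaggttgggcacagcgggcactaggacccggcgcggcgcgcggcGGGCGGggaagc
Slc12a4, chr19:50770123-50770372, - strand: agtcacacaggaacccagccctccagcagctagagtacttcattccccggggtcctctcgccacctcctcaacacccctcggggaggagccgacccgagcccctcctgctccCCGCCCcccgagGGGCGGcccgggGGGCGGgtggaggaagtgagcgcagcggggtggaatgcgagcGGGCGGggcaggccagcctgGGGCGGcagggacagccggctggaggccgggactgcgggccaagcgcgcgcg
The Slc12a5 window held 11 CpG dinucleotides, 59.2% G and C, 1 GC box and 1 CATATG. The Slc12a4 window held 23 CpG, 74.8% G and C and 5 GC boxes. The windows of Slc12a2 and Slc12a7 held 48 and 23 CpG, 83.2% and 71.6% G and C, and 3 and 9 GC boxes, counting overlapping matches. Among 33469 promoters of the same length the medians were 5 CpG and 51.2% G and C, and 30.5% held a GC box, 13.96% CAGATG, 3.63% CATATG and 0.305% TTCAGCACC. The listed start of Slc12a7 lies 28200 bases inside the edge of the gene, so that window belongs to an internal start. A match is only a match of letters.

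Slc12a2, the chloride importer, had the most UMIs of the 4 in radial glia and in excitatory neurons of every library with such cells, and it was lower in intermediate progenitors. There Slc12a7 had more UMIs than Slc12a2 in E16 and E18. In radial glia it stood at 28.5 CPM (24.5 to 33.1, 176 UMIs) in E14, 26.2 (24.8 to 27.8, 1204 UMIs) in E16 and 29.7 (27.6 to 31.8, 774 UMIs) in E18. In intermediate progenitors it stood at 15.5 (12.2 to 19.3), 15.04 (11.9 to 18.7) and 15.8 CPM (13.5 to 18.3). The 3 progenitor values lie below all 3 radial glia values, and no interval of one class reaches the other. The fold, intermediate progenitors over radial glia, was 0.543 (0.410 to 0.712) in E14, 0.573 (0.451 to 0.720) in E16 and 0.531 (0.449 to 0.626) in E18. With 1 CPM added, the log2 ratios were -0.84, -0.76 and -0.87, so 0 of the 2 members that reached the mean of 10 CPM, Slc12a2 and Slc12a7, passed 2-fold. Over all genes at that level 11.5%, 10.9% and 10.8% passed 2-fold in either direction, and 9.20%, 9.70% and 7.77% of genes had a lower ratio than Slc12a2.

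In neurons of both E14 and E18 Slc12a2 was again above its level in intermediate progenitors, although newborn neurons and progenitors of E14 overlap in their intervals. Newborn excitatory neurons held 21.0 CPM (17.8 to 24.6) in E14 and 27.3 (24.7 to 30.1) in E18, and maturing ones 21.1 (19.5 to 22.7) and 30.0 (26.2 to 34.2). The 2 stages did not differ beyond counting error in either library, with folds, maturing over newborn, of 1.00 (0.840 to 1.21) and 1.10 (0.930 to 1.30). The unnamed cluster of E16 held 20.8 CPM (16.9 to 25.4). Against radial glia of the same library, excitatory neurons were at 0.738 times (0.627 to 0.873) in E14 and 0.9501 times (0.854 to 1.06) in E18, and the unnamed cluster at 0.794 times (0.640 to 0.975). The E18 interval includes 1. Without the clusters led by mitotic or histone genes in radial glia, the E14 log2 ratio was -0.33 (-0.65 to 0.01) in place of -0.42 (-0.65 to -0.19), so its interval then included 0. Excitatory neurons of E18 were above those of E14 by 0.40 on the log2 scale, within 2-fold, in a comparison where 3.85% of 7894 genes passed 2-fold and 85.6% had a lower ratio. These neurons lie in 3 clusters in E14 and in 3 others in E18, each with at most 18 cells of the other library, so kinds of neuron and libraries cannot be told apart. In radial glia the log2 ratios of Slc12a2 between libraries were -0.12 (E16 against E14) and 0.05 (E18 against E14), both with intervals that include 0, and E18 stood at 1.13 times (1.03 to 1.24) the level of E16. Inside the H4f3-led cluster E16 was at 26.7 CPM (24.5 to 28.9) and 67 cells of E18 at 10.4 (3.39 to 24.3), the opposite order. Inside the Ung-led cluster they were at 24.1 (21.7 to 26.6) and 27.5 (19.7 to 37.5), with overlapping intervals.

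**Figure D1:**
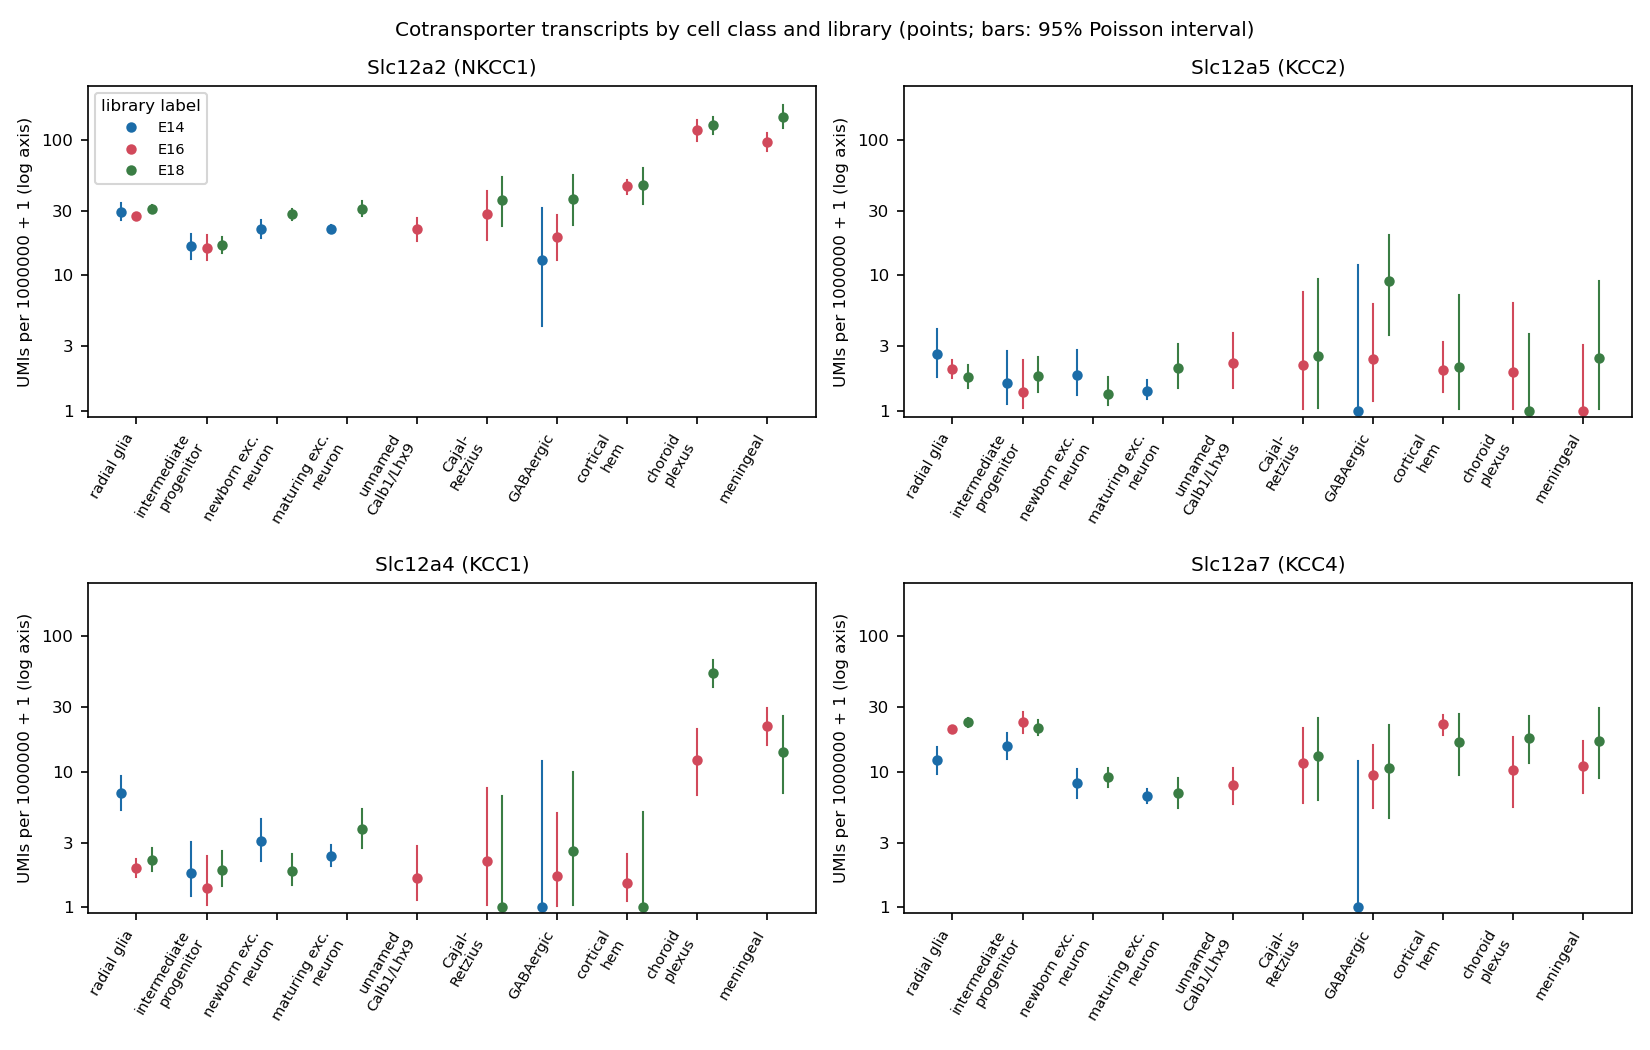
Level of each cotransporter (CPM plus 1, log axis) by cell class, with a point for each library with at least 30 cells of the class and a bar for its 95% Poisson interval. Slc12a2 sits near 15 CPM in intermediate progenitors of all 3 libraries and above 100 in choroid plexus cells, Slc12a5 lies between 0.330 and 1.62 CPM in radial glia, intermediate progenitors and excitatory neurons, and Slc12a7 falls from progenitors to neurons.

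Single clusters showed how uneven the newborn class is. The 3 intermediate progenitor clusters held 10.6, 20.5 and 13.0 CPM of Slc12a2, the middle value in the cluster led by Gadd45g and histone genes. Of the 2 newborn clusters made mostly of E18 cells, the one led by Neurod1 and Nhlh1, factors of the first steps after division, held 15.4 CPM (12.5 to 18.8). The one led by Pcp4, Hpca and Cntn2 held 36.1 CPM (32.3 to 40.3), the highest of any excitatory cluster. The Neurod1 cluster thus lay at the level of intermediate progenitors and the Pcp4 cluster above the radial glia clusters, which ranged from 24.4 to 31.8 CPM, although its interval overlaps that of the highest of them (29.0 to 34.8). In E14 the maturing cluster led by Tafa2 and Gpr85 held 23.8 CPM (21.7 to 26.0) and the one led by Sybu and Dync1i1 16.8 (14.6 to 19.1). Shares of cells with a Slc12a2 UMI after thinning every cell to 2000 UMIs were 5.51% (4.91 to 6.16) in radial glia, 2.89% (2.17 to 3.77) in intermediate progenitors and 4.66% (4.13 to 5.25) in excitatory neurons over the 3 libraries. Within E14 they were 5.85% (3.82 to 8.52), 3.04% (1.63 to 5.15) and 4.56% (3.87 to 5.32), with overlapping intervals, and within E18 6.16% (5.12 to 7.35), 2.62% (1.70 to 3.84) and 4.78% (3.94 to 5.74). Without thinning the shares over the 3 libraries were 29.6%, 15.2% and 20.8%, at median depths of 13010.5, 10998 and 9851 UMIs.

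**Figure D2:**
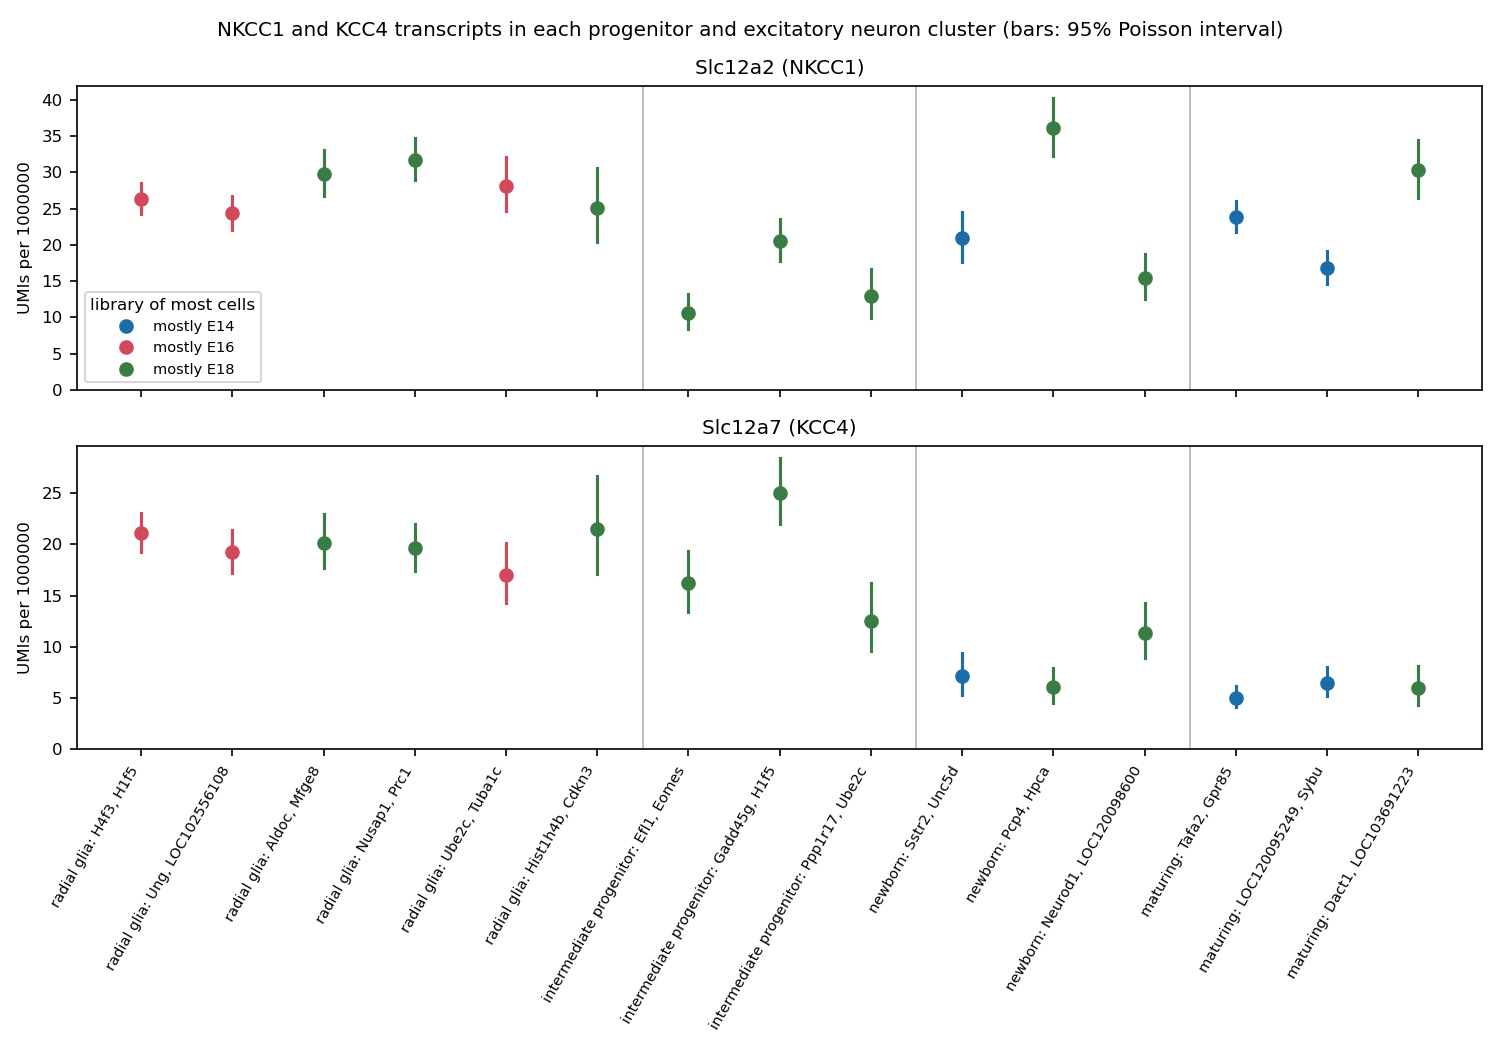
Slc12a2 (top) and Slc12a7 (bottom) in CPM for each cluster of progenitors and excitatory neurons, named by its leading genes and coloured by the library that gave most of its cells, with 95% Poisson intervals. Slc12a2 is 15.4 in the Neurod1-led and 36.1 in the Pcp4-led newborn cluster, while Slc12a7 is 11.4 and 6.06 there.

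Outside the excitatory lineage Slc12a2 reached its highest levels. Choroid plexus cells, the secretory epithelium in which NKCC1 takes part in making cerebrospinal fluid, held 117 CPM (97.1 to 139) in E16 and 127 (109 to 148) in E18. Meningeal cells, a cluster led by collagen genes that also holds vascular cells, held 95.6 (81.8 to 111) and 148 (120 to 179). Cells named cortical hem, a signalling centre at the edge of the cortex, held 44.3 (39.1 to 49.97) and 45.3 (32.5 to 61.4). Their cluster was led by Fgf17, Rspo1, Fgf8 and Rspo2, and Fgf17 and Fgf8 were not among the hem markers used for naming. Erythroid cells of E16 held 1 UMI of Slc12a2 in 124 cells, or 0.244 CPM (0.00618 to 1.36), at a median of 32391 UMIs per cell. The level of free RNA in shallower classes was not estimated. In E16 the order was choroid plexus, meningeal cells, hem, then Cajal-Retzius neurons at 27.2 CPM and radial glia at 26.2, the unnamed cluster at 20.8, GABAergic lineage cells at 18.3, intermediate progenitors at 15.04 and erythroid cells. Neighbours in this order overlapped in their intervals, except meningeal cells and hem, and intermediate progenitors and erythroid cells, which did not.

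Slc12a5, the neuronal chloride extruder, was close to the floor of detection in every class, excitatory neurons included. The kept cells held 32 UMIs in E14, 65 in E16 and 50 in E18, which is 0.606, 0.912 and 0.770 CPM, and no cell had more than 2. Maturing excitatory neurons held 13 UMIs in 2381 cells of E14, or 0.393 CPM (0.209 to 0.673), and 8 in 575 cells of E18, or 1.07 CPM (0.462 to 2.11). Newborn ones held 6 UMIs, or 0.840 CPM (0.308 to 1.83), and 5 UMIs, or 0.330 CPM (0.107 to 0.771). Radial glia held 1.62 CPM (0.777 to 2.98), 1.02 (0.753 to 1.36) and 0.766 (0.468 to 1.18) in label order. The fold, excitatory neurons over radial glia, was 0.292 (0.129 to 0.702) in E14 and 0.750 (0.343 to 1.59) in E18, below 1 in E14 and not told from 1 in E18. A stricter cell filter (at least 2000 genes and at most 5% mitochondrial UMIs) left 66 excitatory neurons of E14, and the E14 log2 ratio then was -1.72 (-2.58 to 0.75) in place of -0.83 (-1.47 to -0.22), so its interval included 0. For maturing neurons of E18 alone it was 1.40 (0.532 to 3.31), above 1 but not told from it. In E16 the unnamed cluster held 6 UMIs, or 1.26 CPM (0.463 to 2.75), against 47 in radial glia, and these intervals overlap.

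Counted over the whole data set, radial glia held 52.4% of the 147 Slc12a5 UMIs and 36.2% of the cells, and excitatory neurons 21.8% of the UMIs and 38.1% of the cells. Erythroid, microglial and meningeal cells, which should lack KCC2, held 1 UMI in 344 cells, or 0.123 CPM (0.00313 to 0.688). That interval overlaps the 0.509 CPM (0.348 to 0.719) of all excitatory neurons and lies below the 0.985 CPM (0.778 to 1.23) of all radial glia. Among these 344 cells, however, erythroid cells gave 4357626 UMIs and 0 of Slc12a5. Meningeal cells alone held the 1 UMI, or 0.327 CPM (0.00827 to 1.82), an interval that overlaps both radial glia and excitatory neurons. These sums mix libraries, since E16 gave 47 of the 77 radial glia UMIs and 2 excitatory neurons. By library, the radial glia of E14 and E16, given above, had lower limits above the upper limit of the 344 cells together. They were not above that of meningeal cells alone. Radial glia of E14 also lay above the excitatory neurons, at 0.473 (0.285 to 0.738). Within E18 radial glia, at 0.766 (0.468 to 1.18), overlapped both the background interval and the excitatory neurons, at 0.575 (0.306 to 0.984). The share of cells with a Slc12a5 UMI was 0.554% (0.376 to 0.785) in excitatory neurons at a median of 9851 UMIs and 0.291% (0.00736 to 1.61) in these 344 cells at 20834.5 UMIs, so the neuronal share was not told from background at this depth. The radial glia share was 1.43% (1.13 to 1.78) at 13010.5 UMIs, and its interval also overlaps that of the 344 cells. After thinning to 2000 UMIs only 7 radial glia and 6 excitatory neurons kept a Slc12a5 UMI, too few to compare. A lncRNA that overlaps Slc12a5 in the GRCr8 gene table, LOC108350521, had 6 UMIs in kept cells.

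The highest Slc12a5 level was in GABAergic lineage cells of E18, with 5 UMIs in 88 cells, or 8.09 CPM (2.63 to 18.9). Its lower limit is above the upper limits of radial glia, of intermediate progenitors and of both neuron classes of that library. Small classes of E18, such as Cajal-Retzius and cortical hem cells with 1 UMI each, had upper limits above that lower limit. The 179 GABAergic cells of E16 held 2 UMIs and the 56 of E14 held 0, which allows up to 8.95 CPM at 3 counts. The class joins 2 clusters, one with 1, 176 and 19 cells of E14, E16 and E18 and the other, with Sst among its leading genes, with 55, 3 and 69, so E16 holds other GABAergic cells than E14 and most of E18. The value thus rests on 5 cells of 1 library. Set against Slc12a2 in the same cells, there were 4.40 (1.63 to 14.9) Slc12a2 UMIs per Slc12a5 UMI in these GABAergic cells. The ratio was 17.6, 25.6 and 38.7 in radial glia in label order, and 44.5 (28.3 to 74.3) and 49.0 (28.4 to 92.5) in excitatory neurons of E14 and E18. Within E18 the GABAergic interval lies below those of radial glia and excitatory neurons. Of the 18 excitatory neurons of E14 with a Slc12a5 UMI, 3 also had Slc12a2, and of the 13 in E18, 5 did, against 20.3% and 21.5% of all excitatory neurons in those libraries. Of the radial glia with a Slc12a5 UMI, 7 of 10 in E14, 20 of 46 in E16 and 9 of 20 in E18 also had Slc12a2, against 30.2%, 29.7% and 29.3% of all radial glia. Cells with a Slc12a5 UMI were deeper than those without, with medians of 12733.5 against 11037 UMIs and 11223 against 8876 in excitatory neurons of E14 and E18, and 19959.5 against 12674, 16148 against 13499 and 13018 against 12268.5 in radial glia in label order. The part of depth in these shares was not tested.

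The cell filter bears on Slc12a5 directly. Barcodes that failed only because more than 10% of their UMIs were mitochondrial held 14 UMIs in E14, 6 in E16 and 11 in E18. These come to 3.75 CPM (2.05 to 6.30), 6.01 (2.20 to 13.1) and 8.09 (4.04 to 14.5), each with a lower limit above the upper limit in the kept cells of the same library. Per 1000000 non-mitochondrial UMIs the values were 4.48, 7.13 and 9.71 against 0.649, 0.949 and 0.810 in kept cells. Slc12a2 was also higher in these barcodes, at 30.8, 48.0 and 66.9 CPM against 21.7, 27.9 and 30.2. Slc12a4 stood at 4.29 (2.45 to 6.97), 6.01 (2.20 to 13.1) and 9.56 (5.09 to 16.3) there against 2.06 (1.69 to 2.49), 1.46 (1.19 to 1.77) and 2.45 (2.08 to 2.86), with intervals that overlap in E14 and do not in E16 and E18. The 16 maturing neuron markers summed to 6690, 1856 and 4251 CPM there, against 6431, 904 and 3000 in kept cells, and the 8 Cajal-Retzius markers to 226, 529 and 320 against 95.8, 138 and 152. The 7 meningeal markers summed to 15.8, 1489 and 736 CPM against 3.82, 220 and 95.7, and the 7 mural markers to 164, 73.1 and 180 against 18.1, 29.1 and 24.9. The 9 GABAergic lineage markers summed to 199, 129 and 117 CPM against 47.1, 108 and 64.8. Progenitor sets were lower there. The 13 radial glia markers summed to 1165, 2972 and 2733 CPM against 1878, 3620 and 3316. The 10 intermediate progenitor markers summed to 718, 785 and 665 against 1347, 1040 and 1755. The part of these markers and of RNA quality in the difference was not tested. Barcodes that failed only for too few genes held 2, 1 and 0 Slc12a5 UMIs.

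**Figure D3:**
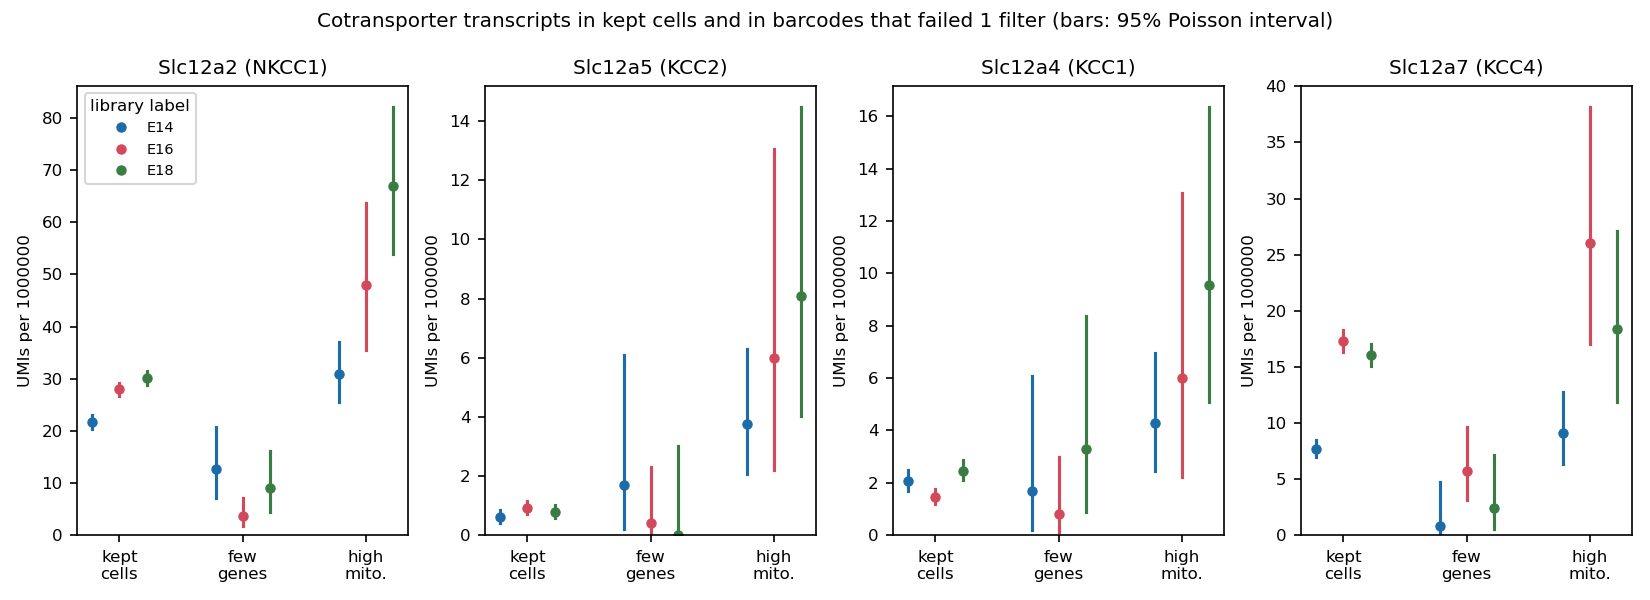
Level of each cotransporter in CPM in kept cells and in barcodes that failed only the gene minimum (few genes) or only the mitochondrial maximum (high mito.), by library, with 95% Poisson intervals. For Slc12a5 the high-mitochondrial barcodes sit at 3.75, 6.01 and 8.09, above kept cells at 0.606 to 0.912 in each library, and Slc12a4 is clear of kept cells in E16 and E18, while the Slc12a7 intervals of these 2 sets overlap in each library.

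Slc12a7, the carrier KCC4, was higher in both progenitor classes than in neurons. Radial glia held 11.2 CPM (8.70 to 14.2) in E14, 19.6 (18.4 to 21.0) in E16 and 22.3 (20.5 to 24.2) in E18, and intermediate progenitors 14.5 (11.4 to 18.2), 22.3 (18.4 to 26.7) and 20.2 (17.6 to 23.0). The 2 progenitor classes overlapped in every library, with folds of 1.30 (0.919 to 1.83), 1.13 (0.927 to 1.38) and 0.906 (0.774 to 1.06), so Slc12a7 was not told apart at the step where Slc12a2 was lower. Newborn neurons held 7.28 CPM (5.43 to 9.54) in E14 and 8.13 (6.76 to 9.70) in E18, and maturing ones 5.63 (4.85 to 6.50) and 6.02 (4.39 to 8.06). All 4 values are below both progenitor values of their library, although newborn neurons and radial glia of E14 overlap in their intervals.

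The fold of Slc12a7, excitatory neurons over radial glia, was 0.529 (0.403 to 0.703) in E14 and 0.334 (0.279 to 0.397) in E18, and that of the unnamed cluster 0.354 (0.242 to 0.5004) in E16. In E14 it did not reach the mean of 10 CPM, so 1 of the 4 members (Slc12a2) was counted there and 0 passed 2-fold, where 31.3% of 8510 genes did. In E18 and in E16 Slc12a2 and Slc12a7 were counted and Slc12a7 passed, as a lower gene. The background in that direction was 15.8% of 8386 genes in E18 and 16.3% of 8250 genes for the unnamed cluster in E16, and 9.98% and 10.8% of genes had a lower ratio. With the stricter cell filter the E14 log2 ratios became -0.35 (-1.55 to 0.75) for Slc12a7 in place of -0.82, so its interval included 0, and -0.91 (-1.74 to -0.15) for Slc12a2 in place of -0.42. By cluster, Slc12a7 held 11.4 CPM (8.91 to 14.3) in the Neurod1-led newborn cluster and 6.06 (4.54 to 7.93) in the Pcp4-led one, the opposite order to Slc12a2. The unthinned share of cells with a Slc12a7 UMI was 23.3% in radial glia, 19.0% in intermediate progenitors and 6.80% in excitatory neurons, and thinned to 2000 UMIs 3.60% (3.11 to 4.13), 3.76% (2.94 to 4.74) and 1.45% (1.16 to 1.80). Most of these radial glia are from E16. Within E14 the thinned shares were 2.58% (1.29 to 4.56), 2.11% (0.968 to 3.96) and 1.21% (0.864 to 1.64), with overlapping intervals, and within E18 4.20%, 4.09% and 1.81%.

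Between libraries, Slc12a7 in radial glia was lowest in E14. Relative to E14, the level was 1.76 times (1.37 to 2.28) as high in E16, whose radial glia lie in other clusters, and 1.99 times (1.55 to 2.59) in E18. Neither the former nor the latter passed 2-fold with 1 CPM added, where 8.48% and 3.45% of genes did in either direction, but 96.4% and 99.1% of genes had a lower ratio. Clusters shared by E14 and E18 gave the same order, with 13.2 against 23.2 CPM in the Aldoc-led cluster and 8.63 against 21.9 in the mitotic cluster led by Nusap1. In the shared cluster led by Hist1h4b the values were 13.1 (5.98 to 24.8) and 23.3 (18.3 to 29.2), with overlapping intervals. The neuronal transcripts in E14 radial glia, given above, and Slc12a7 in E14 excitatory neurons at 5.92 CPM stand beside this difference, and their part was not tested. E18 over E16 was 1.13 (1.02 to 1.26), where 2.21% of genes passed 2-fold. Inside the H4f3-led and Ung-led clusters E16 was at 21.1 and 19.2 CPM and E18 at 20.9 and 19.3, with overlapping intervals.

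Slc12a4, the carrier KCC1, was low, and its contrast between maturing neurons and stem cells turned with the library. Radial glia held 5.998 CPM (4.22 to 8.27, 37 UMIs) in E14, 0.937 (0.678 to 1.26, 43 UMIs) in E16 and 1.23 (0.839 to 1.73, 32 UMIs) in E18. E14 is above both others without overlap, although the E16 cells lie in other clusters, and E16 stood at 0.156 times (0.0983 to 0.249) and E18 at 0.204 times (0.123 to 0.337) its level. E14 was also the higher in clusters that it shares with E18. It was 7.64 against 1.43 CPM in the Aldoc-led cluster. In the Nusap1-led one the values were 3.92 (1.88 to 7.21) and 1.38 (0.806 to 2.22), with overlapping intervals. Some marker sets of other classes were also higher in E14 radial glia, with the 5 oligodendrocyte lineage markers at a summed 19.1 CPM against 1.42 in E16 and 2.99 in E18, and the 10 intermediate progenitor markers at 1791 against 544 and 1024. The maturing neuron markers, given above, were higher there too. The 7 meningeal markers summed to 2.92 CPM with 5 of them at 0, against 9.28 in E16 and 5.29 in E18, and the 8 choroid plexus markers to 3.40 with 4 at 0, against 14.2 and 40.9. The part of these transcripts in the Slc12a4 difference was not tested.

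Maturing excitatory neurons held 1.39 CPM (1.02 to 1.86) of Slc12a4 in E14 and 2.81 (1.74 to 4.30) in E18. The fold, maturing neurons over radial glia, was 0.232 (0.147 to 0.368) in E14 and 2.29 (1.26 to 4.10) in E18. Newborn neurons held 2.10 and 0.859 CPM, at 0.350 times (0.178 to 0.653) and 0.701 times (0.337 to 1.37) the radial glia level, below 1 in E14 and not told from 1 in E18. For both stages together the fold was 0.253 (0.166 to 0.392) in E14 and 1.23 (0.734 to 2.05) in E18, where it was not told from 1. With the stricter cell filter, the E14 log2 ratio of both stages was -1.61 (-2.82 to 0.28) in place of -1.47, and with 5 CPM added in place of 1 it was -0.75 (-1.04 to -0.48). Intermediate progenitors held 0.794, 0.381 and 0.881 in label order. The levels above 10 CPM were in meningeal cells, at 20.8 (14.7 to 28.7) in E16 and 13.0 (5.96 to 24.7) in E18, and in choroid plexus cells, at 11.2 (5.78 to 19.6) and 52.9 (41.4 to 66.5). In the last group 29 of 73 UMIs came from 1 of 36 cells. Slc12a4 and Slc12a5 did not reach the mean of 10 CPM in any comparison of progenitors and neurons, so they were not counted among genes past 2-fold.

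The rest of the chloride pathway was read from 7 lists of 85 genes, chosen with earlier results of these data known. Of these, 39 reached a mean of 10 CPM over radial glia and excitatory neurons in both E14 and E18, 6 were at least 2-fold higher in neurons in both libraries and 9 at least 2-fold lower. Among all 8095 genes at that level 10.5% were higher and 13.6% lower, and the median log2 ratio was -0.13 against -0.10 for the lists. E16 has 2 named excitatory neurons, too few for a level, and its unnamed cluster did not enter the counts. Against radial glia of E16, that cluster was within 2-fold for Wnk2, Ckb and Gabrb2, at log2 ratios of 0.99, -0.57 and -0.11. The other genes named below that passed in E14 and E18 were past 2-fold there in the same direction.

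Of the kinases and phosphatase parts that set cotransporter activity, 12 of 14 reached the level and 1 passed, Wnk2, a kinase of the WNK family that senses chloride, at 20.3 and 79.6 CPM in E14 and 26.5 and 73.1 in E18. Stk39 and Oxsr1, the kinases that pass the WNK signal to the cotransporters, stayed within 2-fold.

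The sodium-potassium pump makes the gradients that drive all of these carriers, and 5 of 8 listed genes reached the level. Atp1b1 stood at 104 CPM in radial glia of E14 but at 6.04 and 9.50 in those of E16 and E18, so its log2 ratio was -2.73 in E14 and 0.36 in E18.

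Of the ligand-gated chloride channels, 4 of 16 reached the level. Of these, 3 were higher in neurons and 1 lower. Gabrb2, a subunit of the GABA-A receptor, went from 2.76 CPM in radial glia to 72.0 in neurons of E14 and from 2.22 to 18.1 in E18, but in E16 the unnamed cluster and radial glia were at 8.63 and 9.39. Gabra4, another subunit, was lower in neurons, from 37.8 to 2.07 CPM in E14 and from 28.5 to 0.575 in E18. Both subunits differed between the classes by over 2-fold in E14 and E18.

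Among chloride channels, 8 of 18 reached the level and 3 passed, all lower in neurons. Ttyh1, a membrane protein of neural stem cells and glia, went from 266 to 18.2 CPM in E14 and from 289 to 17.3 in E18, and Clic1, an intracellular chloride channel protein, from 244 to 27.0 and from 222 to 56.9. Clic4 was the third, with a mean log2 ratio of -1.44. Of 12 partners and regulators of KCC2, 8 reached the level. Rest, the repressor of neuronal genes in progenitors, went from 21.1 to 2.79 CPM in E14 and from 33.1 to 3.36 in E18, and Epb41l1, a protein of the membrane skeleton, from 3.73 to 23.0 and from 2.64 to 20.3. Ckb, Ntrk2 and Fmr1 were the other 3 lower genes. Among chloride-bicarbonate carriers and carbonic anhydrases 1 of 12 reached the level and 0 passed.

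Genes with the most similar pattern were sought by Pearson's r of log2(CPM + 1) over 21 class and library sums of at least 50 cells, among 6146 genes, as a description. The sums share libraries and so preparation and depth. For Slc12a2 the nearest were P3h3 and Tm9sf3, with r of 0.97 each, and Rpn1 with 0.97, and for Slc12a7 they were Ubr7 (0.96), Prim2 (0.94) and Spopl (0.92). The nearest to Slc12a4 were Necap2 (0.70), Tbc1d15 (0.68) and Crip1 (0.64), and to Slc12a5 Fbxl5 (0.66), LOC102547322 (0.63) and LOC102548260 (0.62). The lower values belong to the members with few UMIs per sum.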

How the data were processed

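Single-cell suspensions of embryonic rat cortex gave 3 libraries, 1 per label, so no group has a replicate and nothing was paired. The deposited matrices hold raw UMI counts. Per the file headers, Cell Ranger 6.0.1 made them, with the build mRatBN7.2 per the submitters' processing notes. The authors' counts were used as deposited, with no normalization. Barcodes with at least 1000 genes and at most 10% of UMIs from 13 mitochondrial genes were kept, which left 4444, 5193 and 5690 of 7100, 6707 and 6937. The highest Scrublet scores (Scanpy 1.11.5) were then removed at 0.8% per 1000 cells (158, 216 and 259 cells), since Scrublet's own threshold marked only 0.0385% of E16.

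Clusters came from 2000 variable genes without the cotransporters, pathway or stage genes, 30 components, 15 neighbours and Leiden resolution 1 (leidenalg 0.10.2), with no integration (scikit-learn 1.9.0, numpy 2.4.6). Intervals came from scipy 1.17.1, under Python 3.11.15. Each cluster was named for the class whose markers had the highest mean log2 fold. At least 3 markers, and more than were not, had to be raised 1.2-fold and found in 20% of cells. A name was dropped where the 10 leading genes held more markers of another class. This scoring was settled after the clusters were seen, and class names rest on rebuilt clusters. In the meningeal class Cldn5, a vascular gene, was also among the leading genes.

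UMIs were summed per class and library to CPM with exact Poisson intervals. Folds carry exact conditional binomial intervals. Log2 ratios had 1 CPM added, and their intervals were built from the Poisson limits of the 2 levels, so the 2 kinds of interval can differ. Shares carry exact Clopper-Pearson intervals. Genes with a mean of at least 10 CPM over the 2 groups counted as called past 2-fold, a description with no test. The log2 ratio and its interval were checked on simulated counts, for genes of at least 10 CPM in radial glia of E14. Slc12a5 and Slc12a4 lie below that level, so the check does not cover them. The fold intervals were not simulated. Named genes were the 4 members, the 3 most similar genes for each, and at most 10 pathway genes past 2-fold by size of the mean log2 ratio. That rule asked for all 3 libraries and was applied to E14 and E18, since E16 has 2 named excitatory neurons. Wnk2, Stk39, Oxsr1, Atp1b1, Clic4, Ckb, Ntrk2 and Fmr1 were named after their values were seen. Members and lists were chosen with earlier results of these data known. Alternatives tried were other clusterings, doublets kept, a stricter cell filter, per-cell means, another pseudocount and another level minimum. The protein sequences were not used here. Some genes that the rule names are not reported here.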

Additional observations from a re-analysis of the deposited data

Results flagged for a closer look

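Slc12a4 went in opposite directions between maturing excitatory neurons and radial glia in 2 libraries, at 0.232 times the radial glia level in E14 and 2.29 times in E18, and this difference was not tested. The radial glia level moved more between those libraries (5.998 and 1.23 CPM) than the neuron level (1.39 and 2.81 CPM).

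In barcodes left out of the comparisons for a mitochondrial share over 10%, Slc12a5 stood at 3.75, 6.01 and 8.09 CPM in E14, E16 and E18, and Slc12a2 at 30.8, 48.0 and 66.9 CPM, with intervals above those of the kept cells of the same library. The same held for Slc12a4 in E16 and E18, at 6.01 and 9.56 CPM.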

How the results depend on the processing

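The 4 members' mean log2 ratios, excitatory neurons over radial glia, rest on E14 and E18 and were -0.25 for Slc12a2, -0.50 for Slc12a5, -0.65 for Slc12a4 and -1.14 for Slc12a7. No value with an interval clear of 0 changed sign under any alternative run. With the stricter cell filter (at least 2000 genes and at most 5% mitochondrial UMIs), which left 66 excitatory neurons of E14, 17 of E16 and 540 of E18, E16 entered the mean, and Slc12a5 was at -0.97 and Slc12a7 at -0.75. Over E14 and E18 alone that filter gave -0.47 for Slc12a2, -0.95 for Slc12a5 and -0.70 for Slc12a7. With it, Slc12a5 in excitatory neurons, E18 over E14, went from 0.10 to 0.55 with an interval of -1.81 to 1.24. With 5 CPM added Slc12a7 was at -0.85. Genes past 2-fold numbered 2660 in E14 and 2440 in E18, and 1843 and 1729 at a minimum of 20 CPM. The main values stayed within counting error, or within 1.5 times for counts of genes, in 55 of 62 alternatives. Intervals clear of 0 came to include it for the Slc12a5 and Slc12a4 means under the stricter filter with or without E16, and for Slc12a2 with E16 (-0.22, -0.68 to 0.18) or without mitotic and histone-led clusters (-0.19, -0.38 to 0.003), and for Slc12a5 with the unnamed cluster counted (-0.28, -0.62 to 0.07). Counting the unnamed cluster as excitatory neurons, leaving mitotic and histone-led clusters out of radial glia, and the stricter filter without E16, were added after seeing the data. Slc12a5 in excitatory neurons, E16 over E14, could not be given, since E16 has 2 such cells. No paired analysis was possible because each label has 1 library. Depth limits Slc12a5 and Slc12a4 most, and differences between embryos or preparations cannot be told apart from those between labels.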
